A study of Mus musculus with 18 samples.

Results

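The CCN genes encode secreted matricellular proteins, and Yap1, Wwtr1 and Tead1 encode factors known to drive several of them. The 9 genes described here, Ccn1 to Ccn5, Ankrd1, Yap1, Wwtr1 and Tead1, were taken by name from the 54838 genes of a count table of mouse neural stem cells differentiating into astrocytes. They were selected on measured values of these libraries, since the differences of Ccn2 and Ccn5 from neurospheres had been noted among the largest. Levels against neurospheres are therefore given for these 9 genes as a description, with no test. Tests are given for the 5 comparisons among differentiated cells and for the interaction of TNF and time, which reuse some of the libraries in which those rises were noted. The p-values of Ccn2 and Ccn5 are therefore not independent of that choice.

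The study sequenced total RNA, depleted of ribosomal RNA, to follow astrocytic differentiation under normal and inflammatory conditions. All cells came from wild type C57BL/6J mice at embryonic day 14, as neural stem cells taken from the ventricular zone of single brains and grown as free-floating neurospheres (NSPs) with EGF at 20 ng/ml. The 6 conditions were NSPs kept proliferating and harvested at 0 h, cells moved into medium with 10% serum on plates coated with poly-L-ornithine and harvested after 24 h, after 72 h or after 1 week, and cells given TNF at 50 ng/ml in that medium and harvested after 24 h or 72 h. TNF is an inflammatory cytokine. Serum, attachment to a plate and loss of EGF all separate NSPs from the other 5 conditions and cannot be told apart. Each condition had 3 libraries, numbered 1 to 3, with total counts from 12509693 to 22549627 (median 16794798). The study's methods speak in general of independent biological experiments, but the labels do not say whether these 3 libraries came from separate brains, so p-values measure only the spread between these libraries.

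CCN proteins share a modular build of domains that bind insulin-like growth factors, bone morphogenetic proteins, heparan sulfate and integrins, and they act at the cell surface and in the matrix rather than as structural fibres. CCN5 lacks the C-terminal cystine knot module that the other family members carry. YAP (Yap1) and TAZ (Wwtr1) are co-activators that the Hippo kinases hold in the cytoplasm. When released they enter the nucleus and bind TEAD factors, which sit on the DNA core GGAATG, read as CATTCC on the other strand. Ccn1, Ccn2 and Ankrd1 are textbook targets of this pair, and serum, attachment and a stiff surface are textbook activators of it. mRNA levels do not report where YAP and TAZ are in the cell or whether they are phosphorylated.

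The RefSeq promoter table for GRCm38.p6 held windows for 4 of the 9 genes, Ccn1, Ankrd1, Yap1 and Wwtr1, and they are shown for where the TEAD core lies in them. Of these only Wwtr1 was called with all libraries (edgeR) in a comparison below. Ccn2, Ccn3, Ccn4, Ccn5 and Tead1 had no entry. Upstream of Ccn1 (chr3:145649986-145650235, minus strand) and of Wwtr1 (chr3:57575911-57576160, minus strand) the 250 bases before the start read, 5′ to 3′ with the TEAD core in capitals:
Ccn1: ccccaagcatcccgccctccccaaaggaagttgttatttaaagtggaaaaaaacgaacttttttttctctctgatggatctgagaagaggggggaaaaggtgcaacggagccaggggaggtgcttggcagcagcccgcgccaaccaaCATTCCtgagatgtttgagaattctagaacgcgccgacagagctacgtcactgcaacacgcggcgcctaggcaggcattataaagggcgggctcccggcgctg
Wwtr1: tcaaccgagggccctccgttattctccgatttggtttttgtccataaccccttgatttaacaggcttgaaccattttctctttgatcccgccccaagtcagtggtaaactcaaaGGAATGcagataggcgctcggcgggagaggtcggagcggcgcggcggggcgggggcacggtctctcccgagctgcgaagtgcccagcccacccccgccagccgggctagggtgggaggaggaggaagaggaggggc

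The core of Ccn1 began 103 bases before the start and that of Wwtr1 136 bases before it. The Ankrd1 window lies wholly inside the first exon of the longest Ankrd1 transcript in GENCODE M21, which starts farther upstream than that of RefSeq, and 17 bases of the Yap1 window lie in annotated exons, so for these genes only the core with 10 bases on each side is given, at chr19:36120039-36120064 and chr19:36119952-36119977 for Ankrd1 and at chr9:8004722-8004747 for Yap1, all on the minus strand:
Ankrd1, 210 bases before the start: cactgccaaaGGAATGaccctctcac
Ankrd1, 123 bases before the start: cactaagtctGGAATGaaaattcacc
Yap1, 141 bases before the start: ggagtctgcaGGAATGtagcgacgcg

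All 4 genes thus held at least 1 core of 6 bases, on either strand, in the 250 bases before the RefSeq start, and Ankrd1 held 2, both inside that GENCODE exon. Of all 32851 promoter windows of this length, 12.6% held at least 1 and 1.02% at least 2, so the letters alone are common. No CArG box, the site of serum response factor, was found in these windows, and 1.47% of all windows held one. A match describes letters and not a bound site, and Ankrd1, with 2 cores, was at most 0.149 CPM in any library.

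Levels below are CPM, the counts of a gene as a share of the library's total after TMM normalization, and they are compared between genes only as CPM per kb of exon. Replicate 1 of the TNF libraries stood apart from replicates 2 and 3 at both times. Its median distance to its group mates over the genes tested was 0.332 on the log2 scale at 24 h, against 0.263 and 0.271, and 0.294 at 72 h, against 0.256 and 0.249. Gfap, the intermediate filament of astrocytes, was at 1871 CPM in that library at 24 h with TNF, above 463 and 596 CPM in replicates 2 and 3, and at 1022 CPM at 72 h with TNF, above 217 and 229 CPM. Replicate 1 of NSPs (0.387) and of 72 h (0.331) also lay farther from its group mates. Differences of the 9 genes called with the TNF libraries, and counts of other pathway genes called with them, are given without it too.

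Of the other cell types that could be in such cultures, the fibroblast markers Col1a1, Col1a2, Dcn and Lum were under 1 CPM in every library (4 of 6 markers on the list). The pericyte and smooth muscle markers Kcnj8, Abcc9, Pdgfrb and Anpep (4 of 6), the endothelial markers Pecam1, Cdh5, Cldn5, Tie1 and Emcn (5 of 6) and the microglial markers Aif1, Cx3cr1 and Tmem119 (3 of 5) were likewise under 1 CPM. Other markers of these lists were not. Notch3, which neural progenitors express too, averaged 131 CPM in NSPs and 33.4 CPM at 72 h and made up most of the mural sum (28 to 151 CPM), and Rgs5 averaged 0.0591 CPM in NSPs and at most 3.18 CPM, with TNF at 24 h. Kdr, on the endothelial list, averaged 5.76 CPM at 72 h and 1.2 CPM at 72 h with TNF. P2ry12, on the microglial list, was between 1.19 and 2.54 CPM in the TNF libraries, and Csf1r between 0.472 and 0.87 CPM there. The summed microglial list ranged from 1.15 to 3.8 CPM over all libraries. The summed neuronal list ranged from 6.58 to 58.9 CPM and the summed oligodendrocyte lineage list from 3.55 to 20.6 CPM. The summed fibroblast list ranged from 2.7 to 20.6 CPM, the highest of it from Pdgfra in NSPs (14.8 ± 7.74 CPM, SD, n = 3), a gene of oligodendrocyte progenitors too, and Col3a1 averaged 0.412 CPM in NSPs and between 0.331 and 1.44 CPM later. The 5 neural stem cell markers summed to between 3739.9 and 4963 CPM in NSPs, 1284 and 1873 CPM at 72 h, 844 and 1424 CPM at 72 h with TNF and 1228 and 1724 CPM at 1 week. The 7 astrocyte markers summed to between 2466 and 7524 CPM over all libraries. Of these Gfap averaged 27.1 ± 13.7 CPM (SD, n = 3) in NSPs, 899 ± 44.6 CPM at 24 h, 2432 ± 673 CPM at 72 h and 63.4 ± 15.9 CPM at 1 week, so that the 1 week cells, labelled astrocytes, held little of it, while Slc1a3, the glutamate transporter GLAST, averaged over 2000 CPM in every condition. In bulk RNA, fewer cells that express a gene and less RNA in each cannot be told apart.

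Ccn1 (ENSMUSG00000028195; GRCm38 chr3:145646976-145649981, minus strand) encodes a serum-inducible integrin ligand and was the most abundant CCN gene per kb of exon in every condition. It stood at 6.98, 5.99 and 6.83 CPM in NSPs and at 97.9, 107 and 104 CPM after 24 h. With TNF for 24 h it was at 95, 175 and 178 CPM. The mean at 24 h was 15.6 times that of NSPs, and no library of any differentiated condition came near the NSP values.

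At 72 h Ccn1 was at 98.8, 113 and 132 CPM, and with TNF at 105, 126 and 135 CPM. At 1 week it reached 166, 138 and 172 CPM, or 24 times the NSP mean, above every 72 h library. By mean, the order ran from 1 week (158 ± 18.3 CPM, SD, n = 3) and 24 h with TNF (149 ± 47) through 72 h with TNF (122 ± 15.4), 72 h (115 ± 16.5) and 24 h (103 ± 4.67) to NSPs (6.6 ± 0.536), and the libraries of neighbours in that order overlapped except for NSPs. Ccn1 was not called in any of the 5 comparisons run among differentiated conditions, which do not include 1 week against 24 h. The TNF difference at 24 h was 0.54 ± 0.18 on the log2 scale (edgeR, adjusted p = 0.14). Replicate 1, at 95 CPM, lay below all 3 untreated libraries while replicates 2 and 3 lay above all 3 of them, and without that library the difference was 0.76 ± 0.13 and was called (edgeR, adjusted p = 0.00342). The difference of Ccn1 from 24 h to 72 h with TNF, -0.29 ± 0.18 with all libraries (adjusted p = 0.329), was likewise called without it, at -0.50 ± 0.13 (adjusted p = 0.015), and narrowly missed the threshold without replicate 1 of both TNF conditions, at -0.43 ± 0.14 (adjusted p = 0.0515).

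Ccn2 (ENSMUSG00000019997; GRCm38 chr10:24595442-24598683, plus strand), long known as connective tissue growth factor, was low throughout. No read was counted in any NSP library. It stood at 4.01, 4.7 and 4.56 CPM after 24 h (193 reads in all 3 libraries), at 2.57, 1.96 and 3.19 CPM after 72 h and at 3.14, 2.19 and 3.1 CPM after 1 week. Against a floor of 3 counts in each NSP library this is at least 25.2-fold higher at 24 h, at least 14.7-fold higher at 72 h and at least 16-fold higher at 1 week. These bounds cover counting error only. Per kb of exon Ccn2 was at 1.55 CPM at 24 h, against 51 CPM for Ccn1.

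With TNF, Ccn2 was at 0.756, 2.91 and 3.07 CPM after 24 h and at 0.338, 1.92 and 1.56 CPM after 72 h. Every TNF library lay below every untreated library of the same time, by 0.98 ± 0.45 on the log2 scale at 24 h (edgeR, adjusted p = 0.347) and by 1.02 ± 0.48 at 72 h (edgeR, adjusted p = 0.198). Neither difference was called, and without replicate 1 of both TNF conditions each was -0.57 (adjusted p = 0.368 and 0.254). The antisense gene Gm15270 shares 665 exon bases with Ccn2, and no library held more than 3 of its reads. How reads shared by both genes were counted is not given, so a loss of Ccn2 reads over these bases cannot be told.

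Ccn3 (ENSMUSG00000037362; GRCm38 chr15:54745702-54754039, plus strand), known as NOV and as a CCN protein that often acts against CCN2, was highest at 24 h. It had 0, 3 and 1 reads in NSPs, and 0, 0 and 2 at 1 week. At 24 h it was at 1.06, 0.839 and 1.06 CPM, which is 12.5 times NSPs (counting interval at 95% from 4.53 to 47.9). At 72 h it was at 0.303, 0.429 and 0.22 CPM. It was thus near the limit of detection at the start and the end of the series and higher between them.

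With TNF Ccn3 was at 6.99, 1.94 and 2.59 CPM at 24 h and at 1.41, 0.29 and 0.375 CPM at 72 h. All 3 TNF libraries at 24 h lay above all untreated ones, by 1.97 ± 0.55 on the log2 scale, which narrowly missed the threshold (edgeR, adjusted p = 0.0527). DESeq2 called the same difference (adjusted p = 0.0373), and without replicate 1 of both TNF conditions it was 1.21 ± 0.42 (edgeR, adjusted p = 0.153). At 72 h the groups overlapped and the difference was 1.13 ± 0.73 (edgeR, adjusted p = 0.352). It rested on replicate 1, for without replicate 1 of both TNF conditions it was 0.06 ± 0.65 (adjusted p = 0.97).

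Ccn4 (ENSMUSG00000005124; GRCm38 chr15:66891320-66923201, plus strand), also named WISP1 as a gene inducible by WNT1, had its lowest differentiated levels at 72 h. It was at 0.698, 0.439 and 0.853 CPM in NSPs, at 3.7, 3.02 and 2.44 CPM at 24 h, at 1.21, 1.04 and 1.27 CPM at 72 h and at 3.4, 1.86 and 2.96 CPM at 1 week. The 72 h libraries lay below all libraries of 24 h and of 1 week. With TNF Ccn4 was at 1.95, 7.31 and 6.66 CPM at 24 h and at 1.18, 2.5 and 1.81 CPM at 72 h. TNF replicates 2 and 3 at 24 h were the highest of all 18 libraries, and replicate 1 was below the untreated ones.

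The TNF difference of Ccn4 at 24 h was not called, at 0.79 ± 0.38 on the log2 scale (edgeR, adjusted p = 0.372), whereas without replicate 1 of that condition it was 1.17 (adjusted p = 0.0472). At 72 h it was 0.64 ± 0.44 (adjusted p = 0.383), and 0.87 ± 0.32 without replicate 1 of both TNF conditions (adjusted p = 0.11).

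Ccn5 (ENSMUSG00000027656; GRCm38 chr2:163820861-163833146, plus strand), also named WISP2 and known to restrain proliferation of smooth muscle cells, ranged from 0 CPM in an NSP library to 148 CPM at 1 week. NSPs held 0, 1 and 1 reads. At 24 h it was at 2.8, 3.63 and 3.18 CPM, at 72 h at 86.3, 91.1 and 110.0 CPM and at 1 week at 148, 129.8 and 135 CPM. The ratio to NSPs was 83.7 at 24 h (counting interval at 95% from 22.8 to 698), 2499 at 72 h (691 to 20643) and 3575 at 1 week (989 to 29523), with the width of the intervals set by the 2 reads in NSPs. Per kb of exon Ccn5 was at 1.66 CPM at 24 h and at 71.5 CPM at 1 week, a level near that of Ccn1 (78.4 CPM) and higher than 98% of the genes tested.

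Ccn5 was lower with TNF at 72 h and not at 24 h, and the difference between the times is tested further on. At 24 h the TNF libraries, at 4.03, 4.77 and 4.54 CPM, lay slightly above all untreated ones, a difference of 0.46 ± 0.48 that was not called (edgeR, adjusted p = 0.762). At 72 h they stood at 4.56, 28.9 and 32.7 CPM, all below the lowest untreated library at 86.3 CPM. The mean was 4.35-fold lower, or -2.12 ± 0.39 on the log2 scale (edgeR, adjusted p = 0.00129). Replicate 1 was at the level of the 24 h cells, and replicates 2 and 3 lay between that level and the untreated one. The summed astrocyte list was also lower with TNF at 72 h (3295 to 4675 CPM, against 5253 to 7524 CPM). Gfap was at 489 ± 461 against 2432 ± 673 CPM, Gja1 at 212 ± 148 against 539 ± 83.5 CPM and S100b at 24.4 ± 4.49 against 76 ± 19.4 CPM (SD, n = 3). Aqp4 was at 645 ± 245 against 871 ± 180.2 CPM and Slc1a3 at 2081 against 2203 CPM. Higher with TNF were Slc1a2 (413 ± 188 against 334 ± 55.5 CPM) and Aldh1l1 (12.3 ± 1.83 against 8.14 ± 1.29 CPM). The endothelial sum was lower with TNF too (1.18 to 2.82 CPM, against 5.45 to 6.93 CPM), through Kdr, while Pecam1 averaged 0.652 against 0.324 CPM. Within the 72 h TNF libraries, replicate 1 was lowest in Ccn5 and in Slc1a3 (1676 against 2399 and 2169.9 CPM in replicates 2 and 3). That library was highest in Gfap, Gja1 (383 against 138 and 116 CPM), Aqp4 (922 against 556 and 458 CPM), Slc1a2 (629 against 319.7 and 289.6 CPM), S100b and Aldh1l1. The part of these markers in the difference of Ccn5 was not tested.

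**Figure D1:**
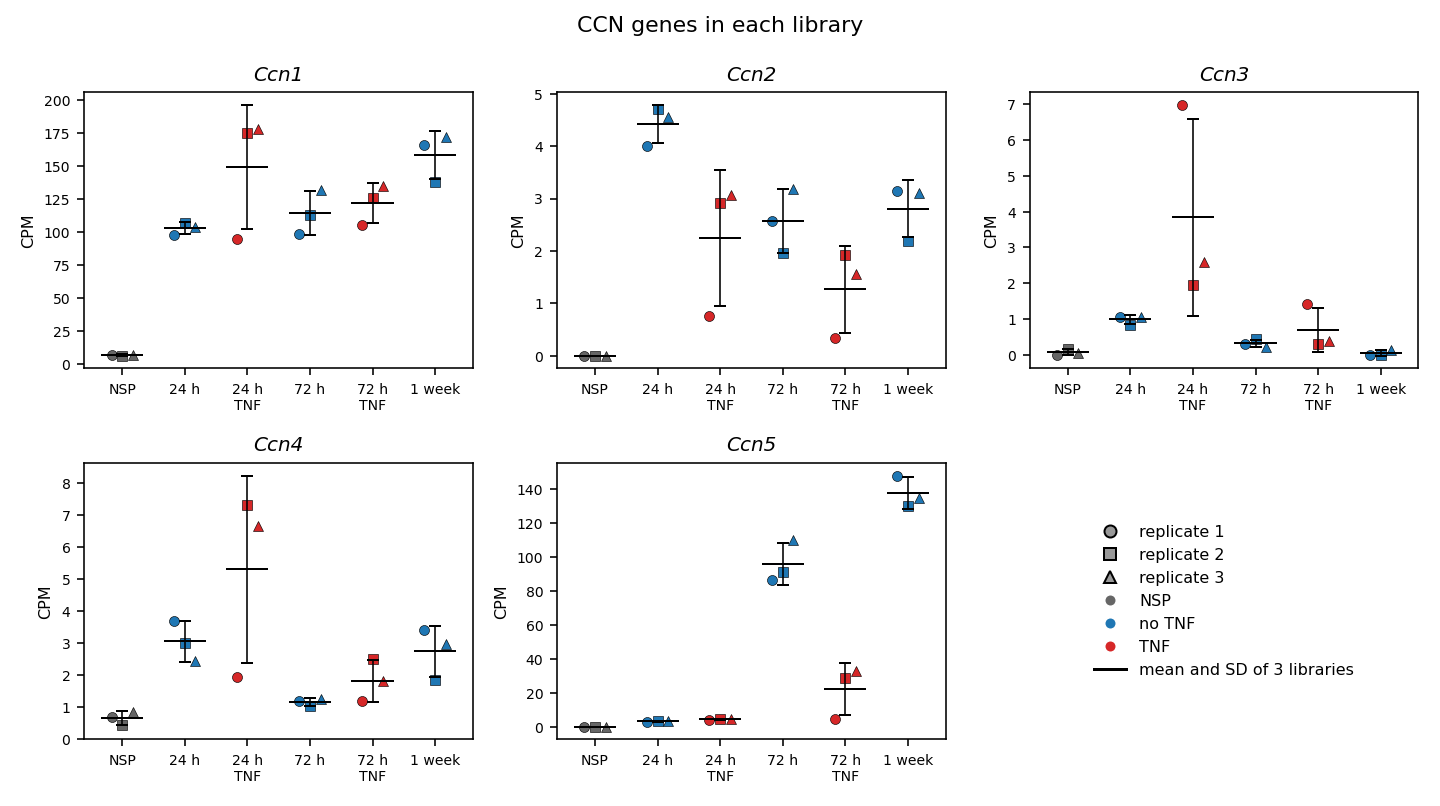
CPM (linear axis) of Ccn1 to Ccn5 in each of the 18 libraries, with symbols for the replicate number, colours for NSPs, untreated and TNF conditions, and black lines for the mean and SD of 3 libraries. Ccn1 was above 90 CPM in every differentiated library, Ccn5 exceeded 80 CPM only at 72 h and 1 week without TNF, and TNF replicate 1 lies apart from replicates 2 and 3 in Ccn2, Ccn3 and Ccn4.

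Ankrd1 (ENSMUSG00000024803; GRCm38 chr19:36111961-36120099, minus strand) encodes a nuclear ankyrin repeat protein of stretched muscle and is widely used as a readout of YAP. It had 1 read in 1 NSP library, 2 reads in each of 2 libraries with TNF at 24 h and none in the other 15 libraries. It did not pass the filter on low counts, so 8 of the 9 genes were tested. Where no read was counted, 3 counts allow a level of up to 0.244 CPM in the shallowest library. Ccn6, the remaining gene of the family, had at most 7 reads in any library and was not tested either.

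Yap1 (ENSMUSG00000053110; GRCm38 chr9:7931999-8004596, minus strand) was the steadiest of the 9. It was at 137, 122 and 116 CPM in NSPs, at 109, 109 and 113 CPM at 24 h, at 115, 117 and 116 CPM at 72 h and at 114, 109.6 and 106 CPM at 1 week. With TNF it was at 109.6, 107 and 114 CPM at 24 h and at 139.7, 127 and 129 CPM at 72 h. The means thus ranged from 109.7 ± 3.91 CPM at 1 week to 132 ± 6.85 CPM at 72 h with TNF. The 72 h TNF libraries lay above all untreated 72 h libraries, by 0.18 ± 0.09 on the log2 scale (edgeR, adjusted p = 0.232), and above all 24 h TNF libraries, by 0.26 ± 0.09 (edgeR, adjusted p = 0.0784; DESeq2, adjusted p = 0.0191).

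Wwtr1 (ENSMUSG00000027803; GRCm38 chr3:57455649-57575910, minus strand), which encodes TAZ, was higher in every differentiated library than in any NSP library. It was at 117, 124 and 125 CPM in NSPs, at 193, 206 and 168 CPM at 24 h, at 238, 274 and 306 CPM at 72 h and at 279, 229 and 295 CPM at 1 week. With TNF it was at 202, 258 and 233 CPM at 24 h and at 221, 267 and 258 CPM at 72 h. Per kb of exon Wwtr1 was at 25.5 CPM in NSPs and 57.1 CPM at 72 h, against 13.5 and 12.5 CPM for Yap1. Its mean at 72 h was 2.24 times that of NSPs, and the libraries of 72 h, 72 h with TNF and 1 week overlapped.

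Tead1 (ENSMUSG00000055320; GRCm38 chr7:112679318-112906807, plus strand), the DNA-binding partner, spread too widely within conditions to be ordered. It was at 126, 62.5 and 51.8 CPM in NSPs, at 249, 162 and 302 CPM at 24 h, at 251, 132 and 109 CPM at 72 h and at 162, 342 and 143 CPM at 1 week. With TNF it was at 268, 196 and 169 CPM at 24 h and at 229, 178 and 195 CPM at 72 h. All differentiated libraries but 1 (72 h replicate 3) exceeded the highest NSP library, and among the differentiated conditions the libraries overlapped. The 3 genes whose levels tracked Tead1 most closely were Gm26823, Gm45632 and Gm49474 (Pearson's r = 0.974, 0.963 and 0.96 over the 18 libraries). No gene annotated in GENCODE M21 shares exon bases with Tead1.

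**Figure D2:**
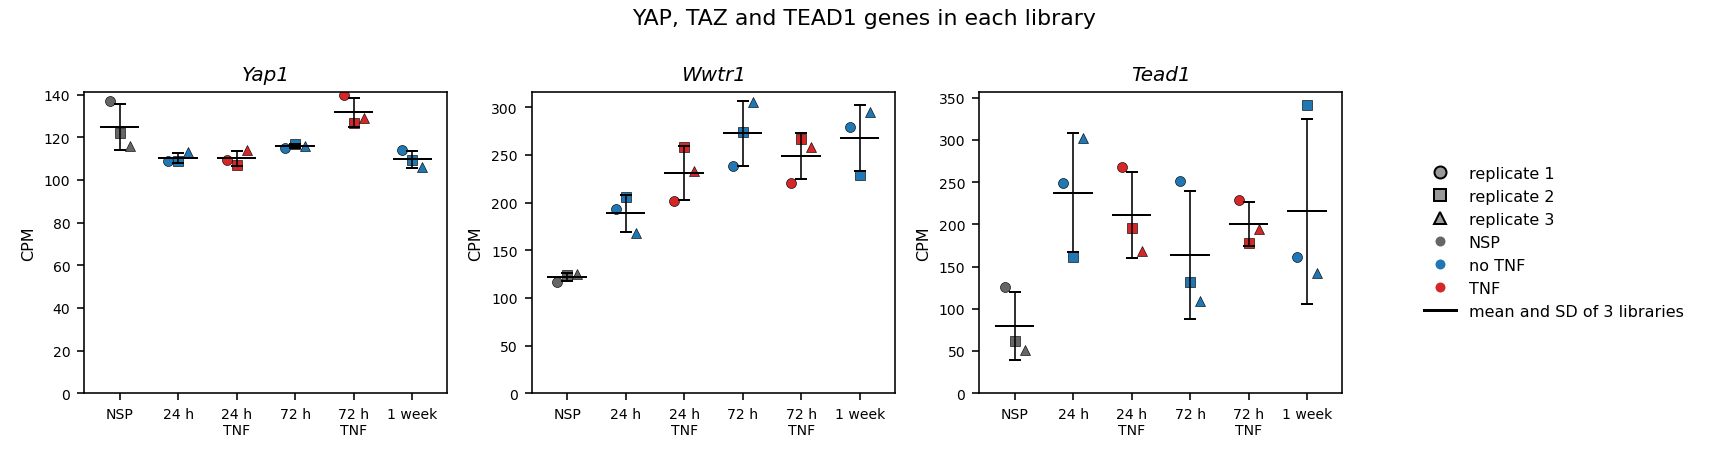
CPM (linear axis from 0) of Yap1, Wwtr1 and Tead1 in each library, with symbols, colours and lines as for the CCN genes. Yap1 stayed between 106 and 139.7 CPM, Wwtr1 was lowest in the 3 NSP libraries, and Tead1 ranged from 109 to 251 CPM among the 3 untreated libraries of 72 h alone.

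Among the 8 genes tested, the TNF difference was called for 1 at 72 h. At 24 h, where 2.18% of the 20067 genes tested were called higher and 1.32% lower, 0 of 8 were called by edgeR, 1 (Ccn3) by DESeq2, and 4 (Ccn1, Ccn2, Ccn3 and Wwtr1) had an unadjusted p under 0.05. These shares are of edgeR calls at an adjusted p under 0.05. None is given here or below for an unadjusted p or for DESeq2, so those counts are a description only. At 72 h, where 4.35% of all genes were called higher and 5.21% lower, 1 of 8 was called, Ccn5, which fell. The call held in every alternative that tested Ccn5, and without replicate 1 of the TNF libraries the difference was -1.63 ± 0.15 (edgeR, adjusted p = 1.81e-06).

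The difference between the TNF effects at 72 h and at 24 h was called for 0 of 8 genes by edgeR, with 2 genes (Ccn5 and Wwtr1) at an unadjusted p under 0.05, where 0.135% of all genes were called higher and 0.324% lower. For Ccn5 it was -2.58 ± 0.61 on the log2 scale (edgeR, adjusted p = 0.0744), called by DESeq2 (adjusted p = 0.0024) and without replicate 1 at 72 h with TNF (-2.09, edgeR, adjusted p = 0.000202).

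From 24 h to 72 h without TNF, 3 of the 8 genes were called, beside 12.2% of all genes called higher and 12.6% called lower. Ccn5 rose 29.7-fold (4.89 ± 0.46 on the log2 scale, adjusted p = 6.73e-07) and Wwtr1 1.44-fold (0.53 ± 0.13, adjusted p = 0.00662), while Ccn4 was 2.6-fold lower (-1.38 ± 0.43, adjusted p = 0.0232), all by edgeR. Ccn5 was noted for its rise from NSPs in libraries that this comparison partly reuses, so its p-value is not independent of that choice. The groups did not overlap for any of the 3, nor for Ccn2, Ccn3 and Yap1, which were not called. The share of all genes without overlap is not given here or below, so this is a description only. Ccn3 was 3.05-fold lower and was not called (-1.61 ± 0.71, edgeR, adjusted p = 0.113). The call of Ccn4 was lost without 24 h replicate 1 or 2 or 72 h replicate 2 or 3 (adjusted p from 0.0522 to 0.0851), and that of Ccn4 and Wwtr1 with the replicate block in which 72 h replicate 3 is unpaired (0.0888 and 0.052).

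With TNF, the step from 24 h to 72 h also called 3 genes, where 5.38% of all genes were called higher and 7.93% lower. Ccn5 rose 4.95-fold (2.31 ± 0.43 on the log2 scale, edgeR, adjusted p = 0.00153), although its replicate 1 at 72 h, at 4.56 CPM, lay among the 24 h TNF libraries, and without that library the rise was 2.82 on the log2 scale (adjusted p = 1.01e-08). Ccn3 was 5.47-fold lower (-2.45 ± 0.56, edgeR, adjusted p = 0.0067) and each numbered library fell, from 6.99 to 1.41, from 1.94 to 0.29 and from 2.59 to 0.375 CPM. Without replicate 1 at 24 h it was -1.65 ± 0.54 (adjusted p = 0.0394), without replicate 1 at 72 h -3.49 ± 0.64 (adjusted p = 0.00141) and without both -2.74 ± 0.54 (adjusted p = 0.00162). Ccn4 was 2.89-fold lower (-1.53 ± 0.39, edgeR, adjusted p = 0.0146) although replicate 2 at 72 h (2.5 CPM) lay above replicate 1 at 24 h (1.95 CPM), and without replicate 1 of both TNF conditions it was -1.68 ± 0.31 (adjusted p = 0.000932). All 3 calls were lost when only the 6 libraries compared were fitted (adjusted p from 0.0655 to 0.114), and that of Ccn4 also without 24 h TNF replicate 2 or 3 or 72 h TNF replicate 1 or 3 (adjusted p from 0.0522 to 0.101).

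From 72 h to 1 week, 0 of the 8 genes were called by edgeR and by DESeq2, and 3 had an unadjusted p under 0.05, where 2.68% of all genes were called higher and 3.96% lower. Ccn1 differed by 0.47 ± 0.18 (edgeR, adjusted p = 0.15), Ccn4 by 1.22 ± 0.42 (adjusted p = 0.0967) and Ccn3, on 2 reads at 1 week, by -2.86 ± 1.20 (adjusted p = 0.189). For Ccn1, Ccn3, Ccn4, Ccn5 and Yap1 the 1 week and 72 h libraries did not overlap, though Yap1 differed by only -0.08 ± 0.09 (edgeR, adjusted p = 0.727). Without the share of all genes that did not overlap, this is no result about the 8 genes. Fitted on these 6 libraries alone, Ccn1, Ccn4 and Ccn5 were called (edgeR, adjusted p from 0.0154 to 0.0428), and no share of all genes is given for that fit.

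**Figure D3:**
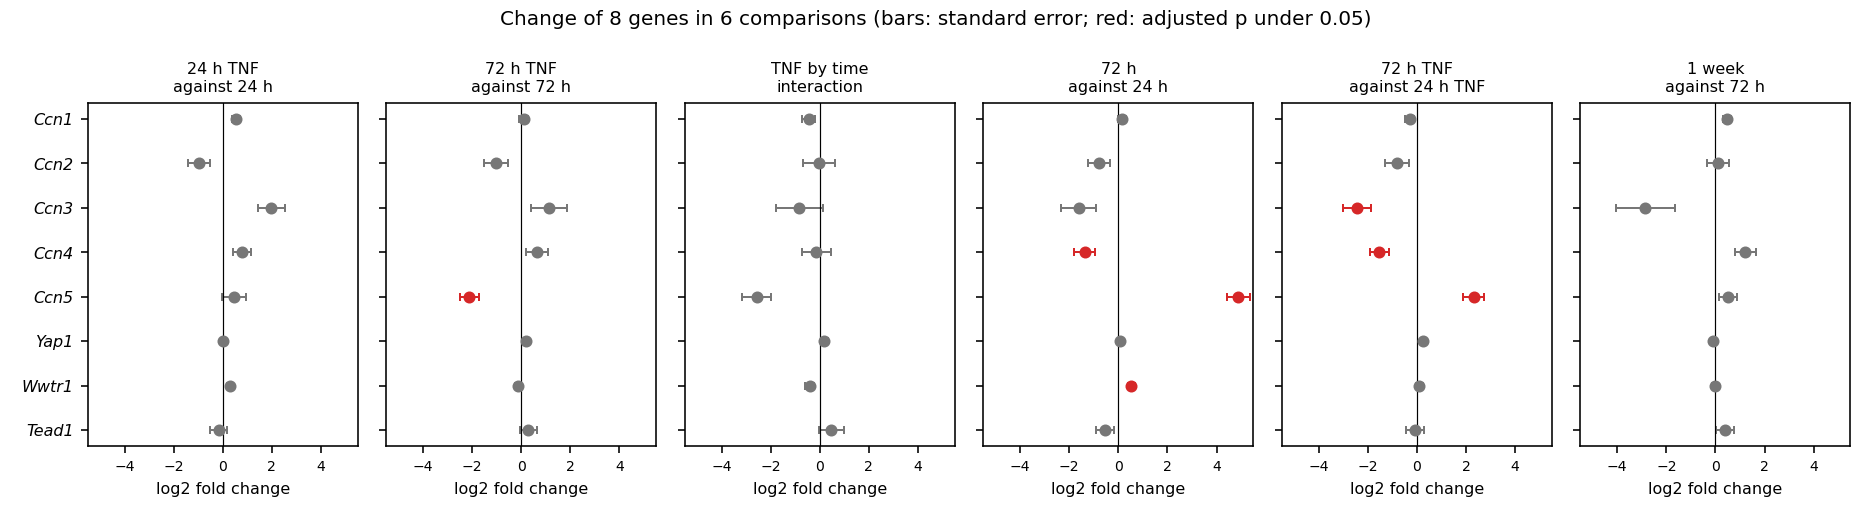
Log2 fold changes with standard errors of the 8 genes tested, in 6 panels for the 6 comparisons, with red for an adjusted p under 0.05 (edgeR). Ccn5 has a called change of 4.89 from 24 h to 72 h and of -2.12 with TNF at 72 h, Ccn3 one of -2.45 from 24 h to 72 h with TNF, and Yap1 and Tead1 have none called.

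**Figure D4:**
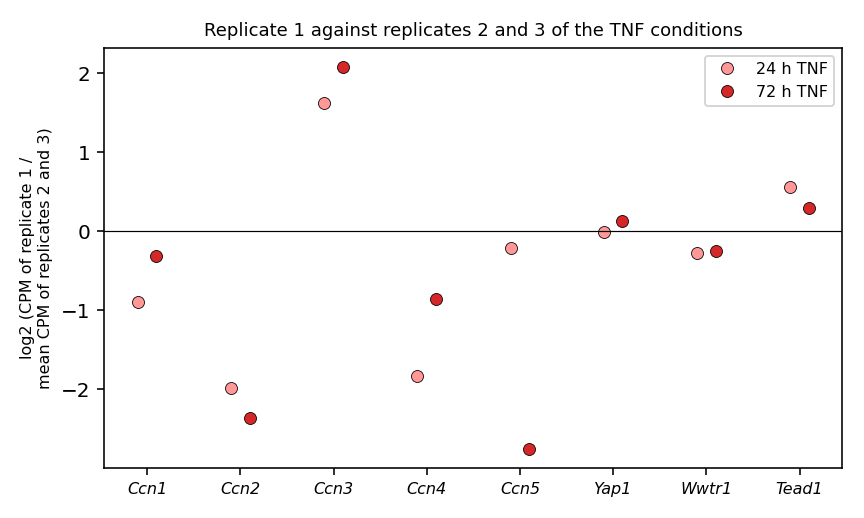
Log2 ratio of the CPM in replicate 1 to the mean CPM of replicates 2 and 3 of the TNF conditions, for the 8 genes at 24 h and 72 h, with 0 for no difference. Ccn2, Ccn4 and Ccn5 are below 0 and Ccn3 above 0 at both times, with ratios of 0.148 for Ccn5 at 72 h and 4.23 for Ccn3 at 72 h.

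Other genes of the pathway were taken from lists written with earlier results of these data known. Of 19 YAP/TAZ target genes outside the 9, all tested, 12 rose and 1 fell from NSPs to 24 h, where 27.2% of all genes were called higher and 25.5% lower. At 72 h 14 rose and 1 fell (28.1% and 27.2% of all genes) and at 1 week 13 rose and 3 fell (29.6% and 29.1%). The median target was higher than in NSPs by 1.02, 1.57 and 1.20 on the log2 scale at the 3 times, beside medians of 0.06, 0.05 and 0.06 over all genes tested. Dock5, an exchange factor for RAC, rose by 3.39 ± 0.30 at 24 h and 4.90 ± 0.32 at 1 week (edgeR, adjusted p = 5.2e-08 and 2.97e-10), and Myof, a membrane repair protein, rose by 4.34 ± 0.63 at 24 h from 0.0935 CPM in NSPs (adjusted p = 1.9e-05). Nuak2, a kinase of the AMPK family, rose by 3.98 ± 0.28 at 1 week (adjusted p = 1.19e-09). Fjx1, a Golgi protein related to the four-jointed kinase of flies, fell at all 3 times, by 0.62, 0.85 and 1.09 (adjusted p = 0.0188, 0.00229 and 0.000234).

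**Figure D5:**
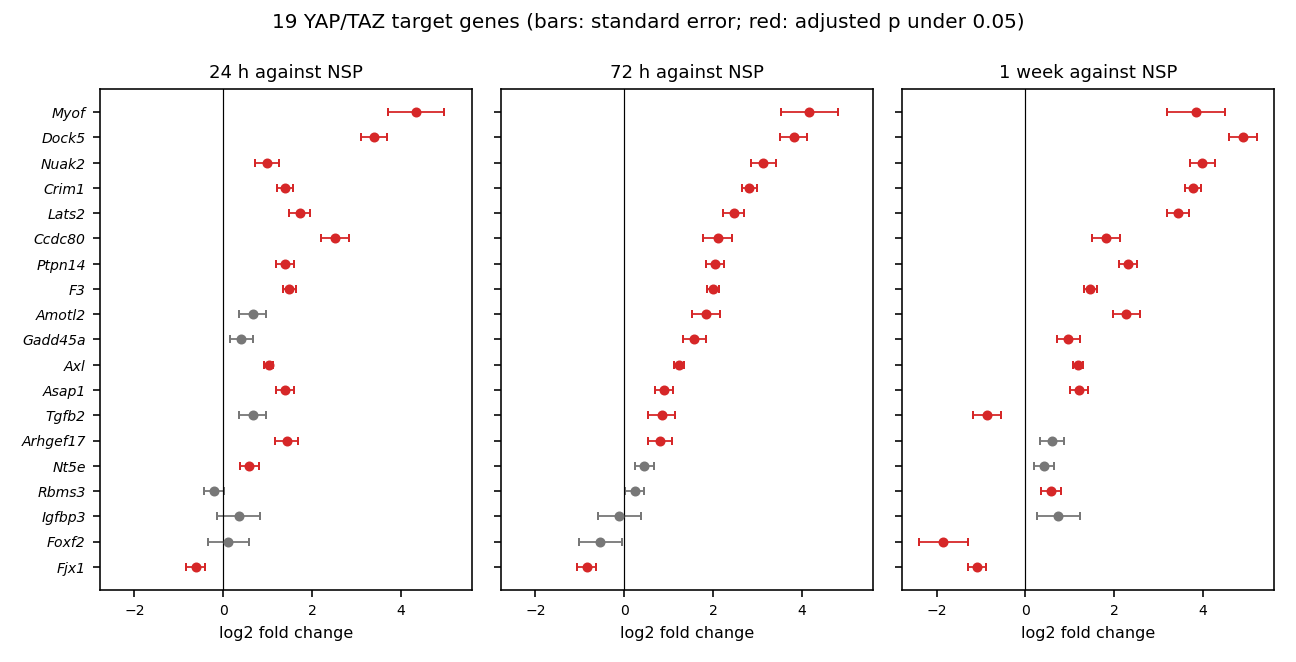
Log2 fold changes with standard errors of 19 YAP/TAZ target genes from NSPs to 24 h, 72 h and 1 week, ordered by the change at 72 h, with red for an adjusted p under 0.05 (edgeR). Myof and Dock5 lead at 72 h with 4.16 and 3.81, and Fjx1 is below 0 at all 3 times.

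Between 24 h and 72 h without TNF, 7 targets were called, all higher, with Nuak2 (2.15 ± 0.26, adjusted p = 9.64e-06) and Crim1, a transmembrane binder of bone morphogenetic proteins (1.42 ± 0.16, adjusted p = 4.94e-06), ahead. With TNF 3 rose and 1 fell over the same time. Without replicate 1 of both TNF conditions 7 rose and 2 fell in that step, with Gadd45a no longer called and Amotl2, Fjx1, Lats2, Myof, Ptpn14 and Rbms3 added. The shares of all genes are from the fit of all 18 libraries, and none is given for fits with libraries left out. Fewer listed genes were called in this step with only the libraries compared, as given further on. From 72 h to 1 week 4 rose, led by Dock5 (1.09) and Lats2 (0.97), and 2 fell, Tgfb2 (-1.71) and F3 (-0.53), beside the shares of all genes given above for these steps. With TNF 3 of the 19 targets were called at 24 h and 4 at 72 h by edgeR (5 and 4 by DESeq2), where 2.18% and 4.35% of all genes were called higher and 1.32% and 5.21% lower. At 24 h Myof (2.23 ± 0.38, adjusted p = 0.0017) and Gadd45a (0.98 ± 0.26, adjusted p = 0.0412) were higher and F3, the tissue factor that starts coagulation, lower (-0.64 ± 0.13, adjusted p = 0.0087). Over all lists of pathway genes together, fewer were called at 24 h whichever library compared was left out, as given further on. At 72 h Myof (2.64 ± 0.38) and Arhgef17 (1.53 ± 0.25) were higher and Ccdc80 (-1.27 ± 0.30) and F3 (-0.88 ± 0.13) lower, with adjusted p from 0.000137 to 0.0109 (edgeR). Myof was at 17.6 CPM in TNF replicate 1 at 24 h and at 6.11 and 5.78 CPM in replicates 2 and 3, all above the untreated mean of 2.12 CPM. Without replicate 1 of both TNF conditions all 7 of these target differences were still called, with Myof at 1.49 ± 0.25 at 24 h (adjusted p = 0.00169), and Igfbp3 (1.29 and 1.15) and Lats2 (0.61 and 0.56) were called higher too at 24 h and 72 h, as was Rbms3 at 72 h (0.44).

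Of 21 Hippo kinases and regulators, 7 rose and 5 fell from NSPs to 24 h, beside 27.2% of all genes called higher and 25.5% lower, 10 rose and 4 fell to 72 h (28.1% and 27.2% of all genes), and 11 rose and 4 fell to 1 week (29.6% and 29.1%). Most of them restrain YAP and TAZ, whereas Limd1 and Ajuba inhibit LATS kinases, so the counts have no single sense for the pathway. Wwc1, the scaffold KIBRA, rose by 2.42 ± 0.22 at 24 h and 4.31 ± 0.24 at 1 week, from 40.6 to 807 CPM (edgeR, adjusted p = 6.68e-08 and 3.85e-11). Lats2, the kinase that phosphorylates YAP and itself a target of it, which with Amotl2 and Ptpn14 stands on both lists, rose by 1.72 ± 0.23 and 3.43 ± 0.24 (adjusted p = 7.29e-06 and 9.81e-10). Limd1 fell by 0.78 and 1.26 (adjusted p = 3.5e-05 and 6.75e-08). From 24 h to 72 h 9 rose and 3 fell without TNF (12.2% and 12.6% of all genes), and 3 rose and 1 fell with it (5.38% and 7.93%), or 6 and 2 without replicate 1 of both TNF conditions. From 72 h to 1 week 2 were called, Lats2 and Frmd6, both higher (2.68% of all genes). With TNF edgeR called 2 genes at 24 h and 1 at 72 h, all lower, beside 1.32% and 5.21% of all genes. They were Amot, the angiomotin that binds YAP, at 24 h (-0.53 ± 0.14, adjusted p = 0.0434) and at 72 h (-0.92 ± 0.14, adjusted p = 0.000326), and Map4k4, a kinase upstream of LATS, at 24 h (-0.41 ± 0.11, adjusted p = 0.0416). Without replicate 1 of both TNF conditions Amot was still called at both times, while Map4k4 was called not at 24 h (-0.40, adjusted p = 0.0571) but at 72 h (-0.40, adjusted p = 0.0314) and Lats2 was called higher at 24 h (0.61 ± 0.12, adjusted p = 0.00413) and at 72 h (0.56 ± 0.11, adjusted p = 0.00317). DESeq2 called Ptpn14, a phosphatase that binds YAP, higher with TNF at 24 h, and Fat4, Map4k4 and Wwc1 lower beside Amot at 72 h.

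Of 7 other TEAD and Vgll genes, which encode the remaining TEAD factors and cofactors that compete with YAP for them, 5 passed the filter. Vgll1 and Vgll2 did not. Tead4 averaged 0.413 CPM in NSPs and rose to 4.15 CPM at 24 h and 13.2 CPM at 72 h (3.31 ± 0.35 and 4.99 ± 0.34 on the log2 scale, edgeR, adjusted p = 4.65e-07 and 5.85e-10), while Tead2 fell, averaging 163 CPM in NSPs, to 63.4 CPM at 24 h and 31 CPM at 1 week (-1.36 ± 0.15 and -2.39 ± 0.16, adjusted p = 8.13e-07 and 3.51e-10). Vgll3 rose by 6.08 ± 0.45 at 1 week, from 0.827 to 56.9 CPM (adjusted p = 1.74e-09). Against NSPs, 3 of the 5 rose and 1 fell by 24 h (27.2% and 25.5% of all genes), and 3 rose and 2 fell by 72 h (28.1% and 27.2%) and by 1 week (29.6% and 29.1%). From 24 h to 72 h 2 rose (Vgll3 and Tead4) and 1 fell (Tead2) without TNF (12.2% and 12.6% of all genes), 1 rose (Vgll3) with it (5.38%; Tead4 also without replicate 1 of both TNF conditions), and from 72 h to 1 week 2 fell (Vgll4 and Tead2; 3.96% of all genes). The TNF difference was called for 0 of these 5 at 24 h and at 72 h by edgeR and by DESeq2, with 0 and 1 at an unadjusted p under 0.05, where 2.18% and 4.35% of all genes were called higher and 1.32% and 5.21% lower, but without replicate 1 of both TNF conditions edgeR called Vgll3 higher at 24 h (0.83 ± 0.17, adjusted p = 0.00665).

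Of 9 receptor genes for CCN proteins, integrin subunits, LRP receptors and the proteoglycan syndecan-4, 2 rose and 2 fell from NSPs to 24 h (27.2% and 25.5% of all genes), 3 rose and 4 fell to 72 h (28.1% and 27.2%) and 4 rose and 4 fell to 1 week (29.6% and 29.1%). Sdc4, which encodes syndecan-4, was higher with TNF at 24 h, at 264 ± 9.91 against 123 ± 16.1 CPM (1.10 ± 0.16 on the log2 scale, edgeR, adjusted p = 0.000562). Itgav, the αv integrin subunit, was higher with TNF at 72 h (0.77 ± 0.12, adjusted p = 0.000265), and its partner Itgb5 lower (-0.55 ± 0.14, adjusted p = 0.0177). With TNF edgeR thus called 1 receptor at 24 h and 2 at 72 h, where 2.18% and 4.35% of all genes were called higher and 1.32% and 5.21% lower. DESeq2 also called Itga5 higher at 72 h. Without replicate 1 of both TNF conditions Sdc4 and Itgav were still called by edgeR, and Itgb5 was not (-0.46, adjusted p = 0.0626). From 24 h to 72 h without TNF 2 rose (Itgb5 and Sdc4) and 4 fell (12.2% and 12.6% of all genes), among them Itgb3 (-2.34 ± 0.29, adjusted p = 9.8e-06) and Itgb1 (-1.40 ± 0.26, adjusted p = 0.000654). With TNF 2 rose and 3 fell (5.38% and 7.93%), or 1 and 4 without replicate 1 of both TNF conditions, where Sdc4 was lost and Itgav added. From 72 h to 1 week 2 were called, Itga6 and Itgav, both higher (2.68%). Over the 51 genes tested on these 4 lists, the interaction of TNF and time was called by edgeR for 0, with 8 at an unadjusted p under 0.05, and by DESeq2 for 2 (Itgb5 and Sdc4), where edgeR called 0.135% of all genes higher and 0.324% lower.

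The genes whose levels ran most like each of the 8 tested genes over the 18 libraries share library depth and the large step from NSPs, so their likeness is given without a test. They were Ezr, Nedd9 and Hs3st1 for Ccn1 (r from 0.978 to 0.986), Dstyk, Acta2 and Akap17b for Ccn2 (0.972 to 0.981), and Col6a2, Atf3 and Col6a1 for Ccn3 (0.94 to 0.963). Acta2 encodes smooth muscle actin, and Col6a1 and Col6a2 encode chains of collagen VI. Ccn4 ran with Lrrk2, Rnd1 and Strn3 (0.92 to 0.955) and Ccn5 with Elmod1, Eprn and 9930012K11Rik (0.987 to 0.99). Wwtr1 ran with Rdh10, Cldn12 and Nudt11 (0.964 to 0.973), and Yap1, which varied least, with Gm45767, Lhx2 and Zfp236 at r of only 0.797 to 0.803.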

How the data were processed

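Per the labels, the authors sequenced total RNA from 18 libraries of mouse cells in 6 conditions with a stranded, ribosome-depleted kit. The submitters' processing notes name FastQC, Trim Galore, STAR, SAMtools, featureCounts and the build mm10. Tool versions, the strand option of the counting and the fate of reads shared by genes are not given in the sources used here, so reads of Ccn2 and Yap1 cannot be told from those of their antisense partners (Gm15270 and Gm20416). RNA quality is given as a range over libraries, not per library. The authors deposited raw counts of reads per gene, without normalization. Total counts ranged from 12509693 to 22549627.

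Genes were named and placed with GENCODE M21 (GRCm38), and promoter letters are from RefSeq (GRCm38.p6). From the counts, edgeR 4.0.16 (R 4.3.3) computed TMM factors and fitted 1 quasi-likelihood model of all 18 libraries, with 1 term for each condition, to the 20067 genes that passed its filter by condition. P-values were adjusted by Benjamini-Hochberg over all genes tested, and a gene was called at an adjusted p under 0.05. Values after ± are SD for levels and standard errors for log2 differences. The test was checked on simulated counts. Counting intervals (95%, exact) and floors (3 counts in each library) cover counting error only, because PCR copies of a molecule cannot be told apart here. Pairs of replicates differed by more than sampling noise, so none was taken as a duplicate.

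The 9 genes and all lists were chosen with earlier results of these data known. From each list and comparison the text names at most the 2 called genes that changed most upward and the 2 that changed most downward, at a mean of at least 1 CPM. Other listed genes are named to complete a count of 5 or fewer, to follow a gene over time or to give its background, and were chosen after their values were seen. Alternatives were RLE normalization, DESeq2 1.42.0, other filters, a fit of the groups compared, a block for the replicate number, and leaving out each library. The labels number replicates 1 to 3, but in the table the column of the third 72 h library bears a 4. Same-numbered libraries deviated together between 24 h and 72 h with TNF (correlations 0.291, 0.255 and 0.266), which was read as possible pairing, and not so in every pair of any other tested comparison. The deviations are from means of 3 libraries, so these 3 correlations are not independent. Values printed in the Results for that step are from fits without a block. Leaving out replicate 1 of both TNF conditions, and applying the alternatives to the lists, were added after the data were seen.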

Additional observations from a re-analysis of the deposited data

Results flagged for a closer look

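For Ccn5, all 3 TNF libraries lay above all untreated ones at 24 h and below all of them at 72 h, so the libraries were ordered in opposite ways at the 2 times, although the difference at 24 h, 0.46 ± 0.48 on the log2 scale, was not called (edgeR, adjusted p = 0.762). The change in the TNF effect from 24 h to 72 h was -2.58 ± 0.61 on the log2 scale and did not pass edgeR's test (adjusted p = 0.0744). With each library left out in turn its adjusted p ranged from 0.000202 to 0.2, and passed the threshold only without replicate 1 at 72 h with TNF.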

How the results depend on the processing

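Of 726 alternative values of the 8 genes' log2 differences, 661 kept their direction and their side of the threshold, 29 passed it where the main value had not, 13 missed it where the main value had passed, and 23, none of them called, changed sign. The counts of the 8 genes called moved as follows. With TNF at 24 h (0) they were 2 with no filter, 1 with at least 5 counts in total, 1 by DESeq2, 2 without both TNF libraries numbered 1, and 0 to 2 with 1 library left out. With TNF at 72 h (1) it was 0 with at least 10 counts in every library, which leaves out Ccn2 to Ccn5. The interaction (0) gave 1 with no filter, with at least 5 counts, by DESeq2 and without both TNF libraries numbered 1, and 0 to 1 with 1 library left out. From 24 h to 72 h (3) the counts were 5 with no filter, 1 with at least 10 counts in every library, 5 with only the groups compared, and 1 with the replicate block in which 72 h replicate 3 is unpaired. With TNF (3) they were 1 with at least 10 counts in every library (Yap1, as Ccn3, Ccn4 and Ccn5 are left out), 0 with only the groups compared, 4 by DESeq2 (Yap1 added) and 2 to 4 with 1 library left out. From 72 h to 1 week (0) they were 4 with no filter and 3 with only the groups compared. The replicate block by number changed no call of the 8 genes.

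The fit with no filter called more genes in several comparisons, and its counts are printed for completeness only. Listed genes called with TNF at 24 h (6) were 10 with no filter and 3 to 5 with 1 library left out. With TNF at 72 h (7) they were 16 with no filter and 11 by DESeq2. For the interaction (0) they were 3 with no filter, 2 by DESeq2 and 0 to 1 with 1 library left out. From 24 h to 72 h with TNF (14) they were 4 with only the groups compared, 21 without both TNF libraries numbered 1 (12 of them the same genes) and 7 to 18 with 1 library left out, and from 72 h to 1 week (11) they were 6 with the replicate block in which 72 h replicate 3 is unpaired and 5 to 10 with 1 library left out. The causes of these moves were not tested.

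The 9 differences that changed sign under some alternative were at most 0.4 in size with all libraries. With 1 library left out, Ccn1 with TNF at 72 h ranged from -0.01 to 0.20, Ccn2 from 72 h to 1 week from -0.04 to 0.32, the Ccn2 interaction from -0.48 to 0.43, the Ccn4 interaction from -0.52 to 0.15, and Yap1 with TNF at 24 h from -0.03 to 0.01. Wwtr1 from 72 h to 1 week ranged from -0.12 to 0.08. Tead1 ranged from -0.40 to 0.02 with TNF at 24 h, from -0.21 to 0.18 from 24 h to 72 h with TNF, and from -0.10 to 0.84 from 72 h to 1 week. Other settings gave 0.01 for the Ccn2 interaction and 0.06 for Wwtr1 from 72 h to 1 week (replicate block, 72 h replicate 3 unpaired), 0.01 for Yap1 with TNF at 24 h (only the groups compared), 0.00 for Wwtr1 from 72 h to 1 week (no filter) and 0.04 for Tead1 from 24 h to 72 h with TNF (without both TNF libraries numbered 1). RLE and DESeq2 scaling moved the median of all genes by at most 0.038 (log2). Ccn2, Ccn3 and Ccn4, at under 8 CPM throughout, have too few reads for small differences to be seen.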
